A study of Mus musculus with 9 samples.

Results

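The 10 genes described here were called in the same direction in the mouse uterus without Mig-6, both with and without Erbb2. They are Cplx2, Tex15, Car11, Pdgfrl, Sema5a and Zfp975, which were lower than control in both knockouts, and Mboat2, Stk35, Knop1 and Enpp3, which were higher in both. They were chosen by that pattern out of 18193 genes with a probe set of their own, so their differences from control are given as a description and not as a test. Each gene was read at every probe set (a group of short probes combined into 1 value) annotated to it alone, 24 of the 45037 probe sets on the array.

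The uterus was sampled whole at gestation day (GD) 3.5, shortly before implantation, and its RNA was hybridized to 9 Affymetrix arrays, 3 per group. Double knockout animals, Mig-6 d/d Erbb2 d/d, lacked Mig-6 and Erbb2 in cells with the progesterone receptor, Mig-6 d/d mice lacked Mig-6 alone there, and control mice carried the floxed alleles without Cre (Mig-6 f/f, in part together with Erbb2 f/f). Both knockouts carried Cre in 1 allele of Pgr, the progesterone receptor gene, so loss of Mig-6 and the Cre allele cannot be told apart in a comparison with control. Mice were of mixed C57BL/6 and 129P2/OlaHsd background. The sources do not tell which control array carried which floxed alleles. Several mice of a genotype were pooled, and nothing says that the 3 arrays of a group held separate pools, so the spread behind the p-values may be technical. The labels give an age of 2 weeks where the methods describe adult mice. In whole tissue, fewer cells of a type and less RNA per cell cannot be told apart.

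MIG-6 (gene symbol Errfi1) is a feedback inhibitor of the EGFR and ERBB receptor kinases, and ERBB2 is the member of that family that has no ligand of its own and signals as the partner of the others. In the mouse uterus Mig-6 is induced by progesterone. Around GD 3.5 the rise of progesterone normally halts proliferation of the luminal epithelium and prepares the stroma for implantation.

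Errfi1 checked the labels. At probe set 1416129_at its intensity was 76, 29.8 and 40.3 in double knockout, 15.1, 16 and 255 in Mig-6 d/d and 454, 564 and 286 in control arrays. At 1419816_s_at it was 20.7, 12.8 and 15.7 in double knockout, 11.2, 10 and 37 in Mig-6 d/d and 65.1, 59.5 and 33.7 in control arrays. Errfi1 was called in neither knockout against control at 1416129_at (limma adjusted p = 0.303 in double knockout and 0.0719 in Mig-6 d/d) or at 1419816_s_at (0.273 and 0.0753). The library labelled as replicate 3 of Mig-6 d/d therefore stood close to the lowest control array at both probe sets. For that reason the calls of the 10 genes, their relatives, the cell type markers and their neighbours are also given without it. Erbb2 at 1424919_at was 18.3, 9.88 and 18.4 in double knockout, 46.5, 39.5 and 44.5 in Mig-6 d/d and 29.4, 36.7 and 45.7 in control arrays. It was called lower in double knockout than in Mig-6 d/d (log2 fold change −1.54, limma adjusted p = 0.00649). Against control it was called neither in double knockout (−1.3, adjusted p = 0.0649) nor in Mig-6 d/d (0.24, adjusted p = 0.672). Pgr at 1439527_at was 729, 791 and 986 in double knockout, 873, 798 and 588 in Mig-6 d/d and 1060, 1110 and 1610 in control arrays, without overlap between either knockout and control, though neither difference was called (limma adjusted p = 0.448 in double knockout and 0.0734 in Mig-6 d/d). At its other probe sets the double knockout overlapped control, and Mig-6 d/d did so at 1455772_at. Of these 1421444_at gave 39.2, 27.4 and 35.3 in double knockout, 32.9, 36.5 and 24.7 in Mig-6 d/d and 38.8, 37.7 and 58.3 in control arrays, and 1455772_at gave 16.9, 15.9 and 24.3 in double knockout, 22.4, 13.9 and 13 in Mig-6 d/d and 18.6, 23.7 and 27.2 in control arrays. Whether the Pgr level bears on the 10 genes was not tested. The median intensity per array was 7.87 to 8.24.

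Calls required an adjusted p below 0.05 (limma, Benjamini-Hochberg) together with a change of more than 1.5-fold. Of the 24 probe sets, 4 were called higher and 6 lower in double knockout than in control, where 0.198% and 0.16% of all probe sets were called in those directions. In Mig-6 d/d 6 were called higher and 6 lower than in control, with 1.71% and 1.09% of all probe sets. Those Mig-6 d/d shares depended on single arrays: the 1265 probe sets called in Mig-6 d/d became 419 without replicate 3 of that group, 357 without its replicate 1 and 353 without control replicate 2. Since these calls chose the genes, nothing is read from the shares. In both knockouts 10 of the 24 were called in the same direction, 1 for each gene, 4 higher and 6 lower; over the whole array 4 probe sets (0.00888%) were higher and 9 (0.02%) lower in both. The other 3 of these 13, all lower in both, were probe sets of Malat1 (log2 fold change −0.97 in double knockout and −1.05 in Mig-6 d/d) and Cuedc1 (−2.67 and −1.13), which do not belong to the set of 10, and a probe set unnamed here. A further 2 probe sets were called in both knockouts in opposite directions, 1 for Ctse and 1 annotated to several genes.

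Cplx2, complexin 2, binds the assembled SNARE complex and regulates calcium-triggered exocytosis in neurons and mast cells. At 1421477_at its intensity was 40.9, 35.0 and 47.2 in double knockout, 46.5, 54.3 and 48.3 in Mig-6 d/d and 111, 130 and 84.9 in control arrays. All 6 knockout arrays lay below the lowest control array. The log2 fold change against control was −1.39 ± 0.16 in double knockout (SE of the limma fit; 2.62-fold lower) and −1.11 ± 0.16 in Mig-6 d/d (2.16-fold lower).

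Tex15, needed in mouse male germ cells for meiotic recombination and for silencing of transposons, has 1 probe set, 1420719_at. It gave 70.6, 86.6 and 50.5 in double knockout, 97.3, 135 and 98.3 in Mig-6 d/d and 195, 276 and 207 in control arrays. The 3 groups formed 3 separate steps, with the double knockout lowest. The log2 fold change against control was −1.72 ± 0.21 in double knockout (3.3-fold lower) and −1.03 ± 0.21 in Mig-6 d/d (2.05-fold lower).

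Car11 encodes a secreted relative of the carbonic anhydrases that lacks their catalytic activity. At 1424379_at, its single probe set, the intensity was 19.2, 17.4 and 14.3 in double knockout, 16.1, 16.6 and 15.5 in Mig-6 d/d and 26.7, 31.4 and 29.0 in control arrays. The knockouts overlapped each other and stayed below control (log2 fold change −0.78 ± 0.12 in double knockout and −0.85 ± 0.12 in Mig-6 d/d). Pdgfrl, which resembles the extracellular part of the PDGF receptors and has no kinase domain, was at 38.4, 35.6 and 43.4 in double knockout, 47.8, 41.7 and 41.1 in Mig-6 d/d and 69.1, 71.2 and 61.0 in control arrays at its single probe set, 1428896_at. It too was lower in both knockouts by similar amounts, with log2 fold changes of −0.78 ± 0.11 in double knockout and −0.62 ± 0.11 in Mig-6 d/d.

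Sema5a, a transmembrane semaphorin known for axon guidance, read 91.75, 111 and 124.52 in double knockout, 124.54, 168 and 152 in Mig-6 d/d and 259, 205 and 313 in control arrays at 1437422_at. The log2 fold change against control was −1.24 ± 0.18 in double knockout and −0.80 ± 0.18 in Mig-6 d/d. The lowest control array stood above every knockout array. Zfp975, a zinc finger gene by its name, was at 16.9, 13.7 and 12.7 in double knockout, 14.7, 17.7 and 15.1 in Mig-6 d/d and 22.2, 26.6 and 25.2 in control arrays at 1439295_x_at, a kind of probe set whose probes may also match other transcripts. Its log2 fold changes were −0.78 ± 0.13 in double knockout and −0.64 ± 0.13 in Mig-6 d/d. Both knockouts lay within 1 narrow range below control.

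Among the genes that were higher, Mboat2 encodes a membrane-bound acyltransferase that adds fatty acids to lysophospholipids. At 1425029_a_at it gave 96.5, 106 and 132 in double knockout, 111, 103 and 107 in Mig-6 d/d and 57.8, 44.9 and 64.2 in control arrays. The knockouts overlapped, and both were about equally far above control, with log2 fold changes of 1.01 ± 0.15 in double knockout (2.01-fold) and 0.96 ± 0.15 in Mig-6 d/d (1.94-fold). Stk35, a serine/threonine kinase found in the nucleus, was at 42.7, 39.3 and 36.6 in double knockout, 34.2, 33.6 and 37.7 in Mig-6 d/d and 23.4, 21.6 and 24.8 in control arrays at 1439802_at. Its log2 fold changes were 0.77 ± 0.10 in double knockout and 0.60 ± 0.10 in Mig-6 d/d, the smallest increases of the 4 genes.

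Knop1 encodes a lysine-rich protein of the nucleolus. At 1436541_at it read 28.8, 26.4 and 25.8 in double knockout, 14.6, 16.9 and 19.1 in Mig-6 d/d and 10.3, 8.03 and 12.5 in control arrays, 3 separate steps with the double knockout highest. The control values were near the arrays' median of 8.07. The log2 fold change against control was 1.42 ± 0.16 in double knockout and 0.73 ± 0.16 in Mig-6 d/d.

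Enpp3, an enzyme of the cell surface that cleaves extracellular nucleotides and also marks basophils and mast cells, was read at 1439260_a_at. Its intensity was 345, 538 and 423 in double knockout, 232, 218 and 260 in Mig-6 d/d and 96.1, 52.1 and 143 in control arrays. Again the 3 groups did not overlap. The log2 fold change was 2.26 ± 0.30 in double knockout (4.79-fold) and 1.40 ± 0.30 in Mig-6 d/d (2.64-fold), the largest increases of the set, on the group with the widest relative spread among its controls.

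**Figure D1:**
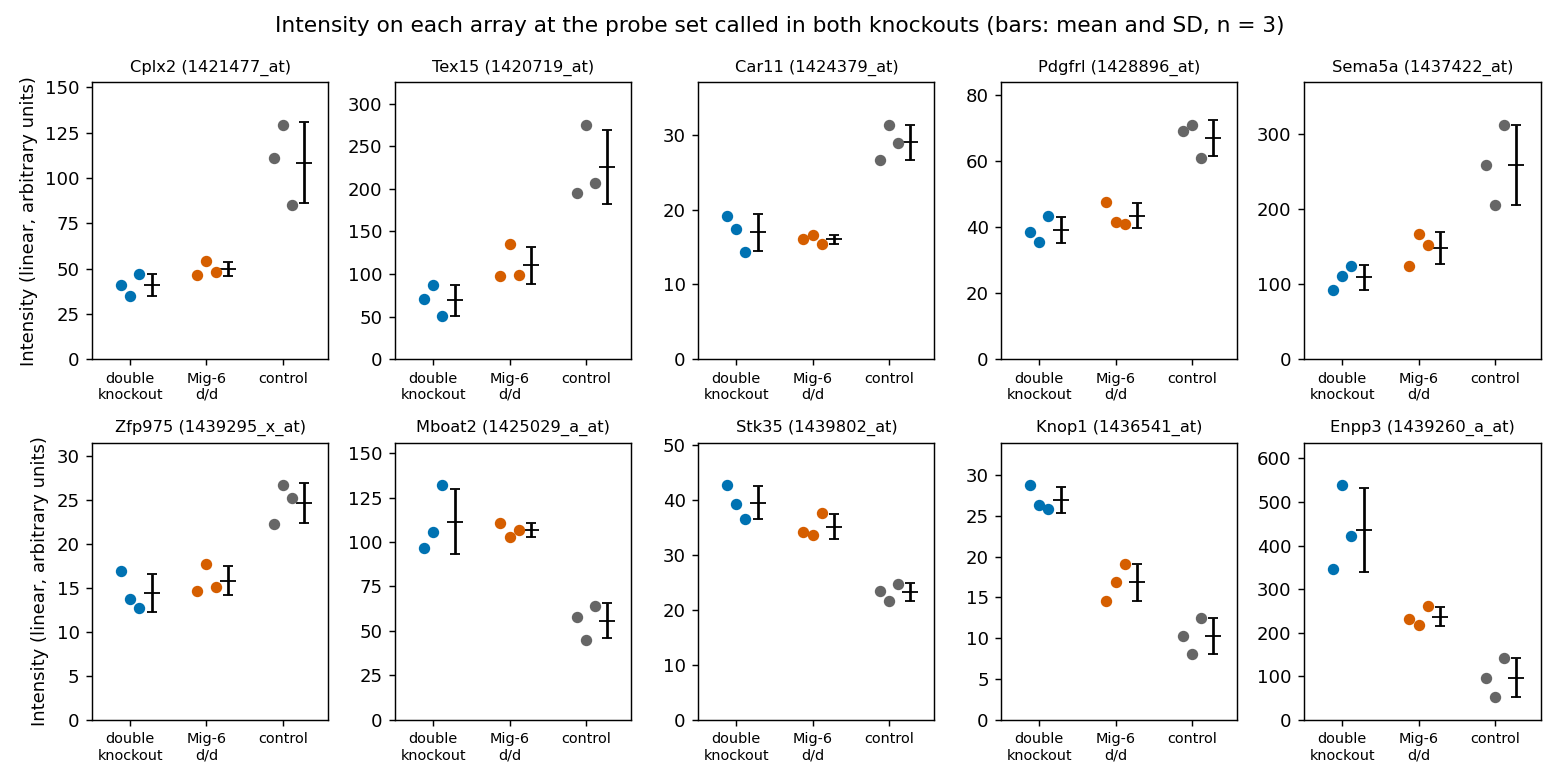
Intensity on a linear scale in arbitrary units, on each of the 9 arrays, at the probe set of each gene that was called in both knockouts; points are arrays and black bars the mean and SD of 3. In every panel the 6 knockout arrays lie on 1 side of the 3 control arrays. Calls against these same control arrays chose the genes and probe sets, so nothing is read from that separation. At the probe sets shown for Tex15, Sema5a, Knop1 and Enpp3 the double knockout arrays also lie beyond the Mig-6 d/d arrays, which likewise depends on the choice of probe set.

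At the edge of the selection, the members with the largest adjusted p in either comparison were Zfp975 (0.0419) and Sema5a (0.0405). Malat1, not included in the set, had 0.048. Just outside were Noct at 0.0555, Ankrd11 at 0.0565 and Fam241a at 0.0591, each changed by more than 1.5-fold in the same direction in both knockouts.

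Promoters of genes that moved together are shown for both directions, for the pair of lower genes with an entry that changed most in double knockout (Cplx2 and Sema5a) and for the pair of higher genes that differed least between the knockouts (Mboat2 and Stk35). Each line gives the 250 bases before the RefSeq start site in build GRCm38.p6, read on the gene's strand, with every CG in capitals.
Cplx2 chr13:54302306-54302555 (+): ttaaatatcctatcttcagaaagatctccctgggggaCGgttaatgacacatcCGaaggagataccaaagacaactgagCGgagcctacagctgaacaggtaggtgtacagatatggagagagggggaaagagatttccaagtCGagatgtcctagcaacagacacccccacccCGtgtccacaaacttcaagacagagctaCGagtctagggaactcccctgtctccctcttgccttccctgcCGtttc
Sema5a chr15:32244563-32244812 (+): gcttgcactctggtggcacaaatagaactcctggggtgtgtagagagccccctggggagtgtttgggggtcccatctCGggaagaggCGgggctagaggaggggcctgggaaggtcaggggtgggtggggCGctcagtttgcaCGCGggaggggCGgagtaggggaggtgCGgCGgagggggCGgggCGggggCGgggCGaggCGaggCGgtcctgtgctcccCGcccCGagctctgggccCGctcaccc
Mboat2 chr12:24831349-24831598 (+): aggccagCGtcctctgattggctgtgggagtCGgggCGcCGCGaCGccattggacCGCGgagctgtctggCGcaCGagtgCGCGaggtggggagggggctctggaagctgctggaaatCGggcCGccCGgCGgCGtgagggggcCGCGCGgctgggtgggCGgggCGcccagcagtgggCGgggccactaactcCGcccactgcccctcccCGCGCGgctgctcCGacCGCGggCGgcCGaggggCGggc
Stk35 chr2:129800267-129800516 (+): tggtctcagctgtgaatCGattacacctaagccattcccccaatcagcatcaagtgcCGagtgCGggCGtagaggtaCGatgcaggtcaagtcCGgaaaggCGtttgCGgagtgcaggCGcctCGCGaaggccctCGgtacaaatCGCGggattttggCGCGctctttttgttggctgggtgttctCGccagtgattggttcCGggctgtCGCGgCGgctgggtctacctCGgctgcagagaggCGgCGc
They held 7 (Cplx2), 17 (Sema5a), 33 (Mboat2) and 24 (Stk35) CG dinucleotides. Of the 10 genes, 8 matched an entry of the RefSeq promoter table and gave 10 promoters of 300 bases, 250 before and 50 after the start. In that window CG counts ran from 5 in Enpp3 to 40 in Mboat2, beside a median of 7 over all 32851 promoters; those of the lower genes were 8 in Zfp975, 9 in Cplx2, 11 and 13 in Car11 and 23 in Sema5a, and those of the other higher genes 27 in Stk35 and 36 and 37 in Knop1. The directions thus overlapped in CG content. None of the 10 windows held the progesterone response element ACANNNTGT (6.85% of all promoters did), the estrogen response element in its palindromic form (0.07%), the AP-1 motif TGANTCA (7.81%) or the E-box CACGTG (7.15%), each of which reads the same on both strands. This says only that these letters are not in these windows.

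The comparison of the double knockout with Mig-6 d/d asks whether loss of Erbb2 changed the level of these genes further. It did not choose them, but it shares all 6 knockout arrays with the comparisons that did. Of the 24 probe sets 1 was called higher and 0 lower, where 2.38% and 2.75% of all probe sets were called higher and lower. At an unadjusted limma p under 0.05 there were 7, beside 20.2% of all probe sets. They included probe sets of Sema5a that changed in opposite directions (1437422_at −0.44, 1434776_at 0.72). The same held for Knop1 (1436541_at 0.68, 1435690_at −0.31), and 1427303_at of Enpp3 among them lay below the arrays' median. The 1 call was Knop1 at 1436541_at, with a log2 fold change of 0.68 ± 0.16 (95% confidence interval 0.33 to 1.04, limma adjusted p = 0.0319), and all 3 double knockout arrays above all 3 Mig-6 d/d arrays.

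Tex15 was lower by 0.69 ± 0.21 on the log2 scale in double knockout than in Mig-6 d/d (log2 fold change −0.69, interval −1.16 to −0.21), without overlap, but missed the threshold (limma adjusted p = 0.0880). Enpp3 at 1439260_a_at had a log2 fold change of 0.86 ± 0.30 (interval 0.18 to 1.53, adjusted p = 0.135) and Sema5a at 1437422_at one of −0.44 ± 0.18 (interval −0.84 to −0.05, adjusted p = 0.190). At 4 of the 10 probe sets called in both knockouts, those of Knop1, Tex15, Enpp3 and, by the narrowest of margins, Sema5a, the arrays of the knockouts did not overlap, beside 26.9% of all probe sets. Calls against control that used these same knockout arrays chose the probe sets, so nothing is read from that count. A different probe set of Sema5a (1434776_at, 0.72), Knop1 (1435690_at, −0.31) and Enpp3 (1427302_at, −0.47) also separated the knockouts, in the opposite direction.

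The other 6 genes differed less between the knockouts. For Cplx2 the log2 fold change was −0.28 (interval −0.65 to 0.08, limma adjusted p = 0.390), so that a fall to 0.639-fold was within the interval. For Car11 (0.07, interval −0.20 to 0.34), Pdgfrl (−0.15, −0.41 to 0.10), Zfp975 (−0.14, −0.43 to 0.16), Mboat2 (0.05, −0.29 to 0.39) and Stk35 (0.17, −0.06 to 0.40) the whole interval lay within 1.5-fold, with adjusted p of 0.416 to 0.910. This held for 14 of all 24 probe sets. A p above the threshold does not show that the levels were equal.

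**Figure D2:**
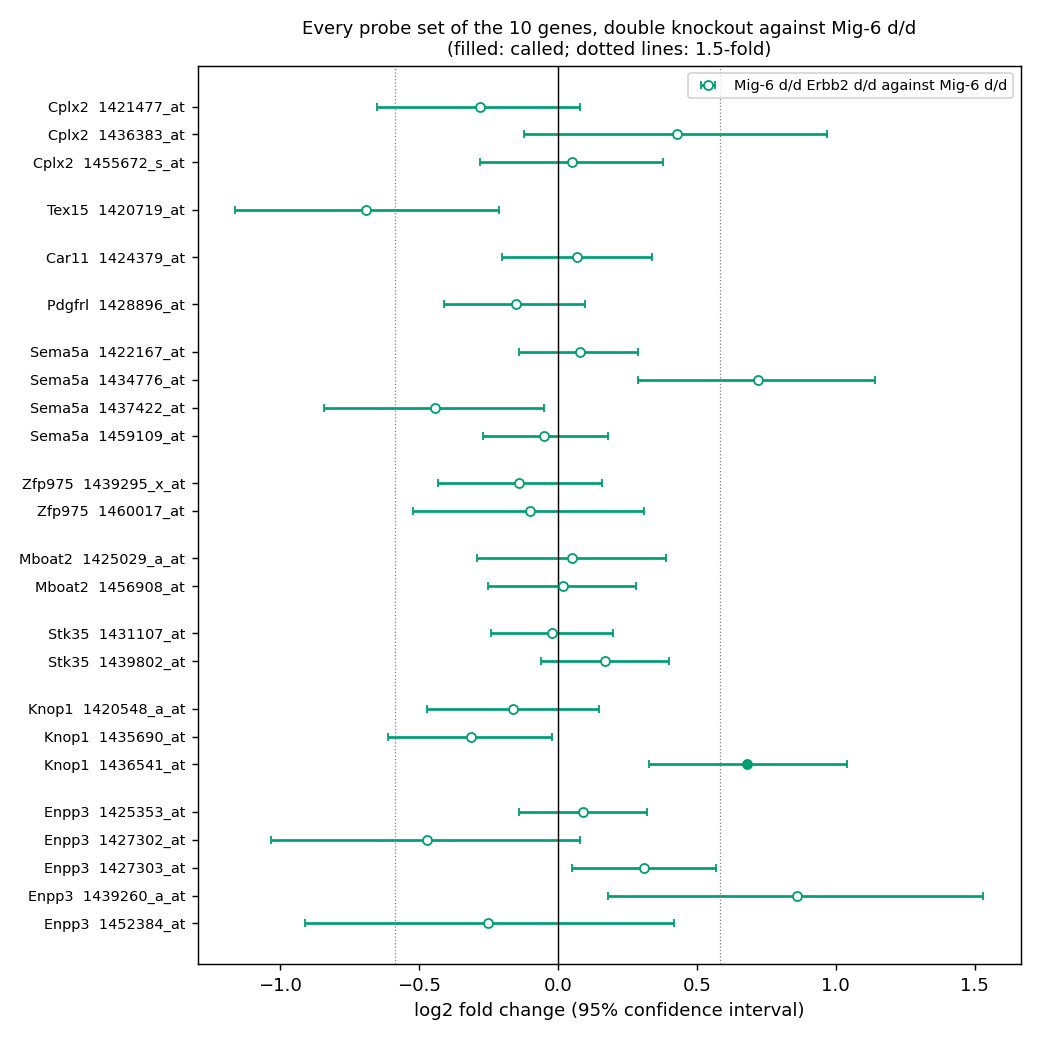
Log2 fold change, double knockout over Mig-6 d/d, with its 95% confidence interval from limma at each of the 24 probe sets; filled points were called and dotted lines mark 1.5-fold. The single filled point is Knop1 at 1436541_at (0.68), while another probe set of the same gene, 1435690_at, lies at −0.31.

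Other probe sets of the same genes often read differently. Of the 24 probe sets, 8 had a mean intensity below 16.1, which is 2 times the median of all values, and none of these was called in any comparison; their values ran from 3.48 to 17.04 and carry little information. Of the 16 brighter ones, 10 were those called in both knockouts and 6 were further readings of Cplx2, Sema5a, Knop1 and Enpp3. The remaining 6 genes rested on 1 probe set above that level.

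For Cplx2, 1455672_s_at read 46.8, 57.9 and 56.1 in double knockout, 50.5, 55.3 and 48.8 in Mig-6 d/d and 56.4, 74.4 and 50.04 in control arrays, with all groups overlapping (log2 fold change against control −0.16 in double knockout and −0.21 in Mig-6 d/d). For Sema5a, 1434776_at gave 84.5, 88.0 and 62.4 in double knockout, 46.9, 49.4 and 45.3 in Mig-6 d/d and 62.5, 62.5 and 100 in control arrays. There the Mig-6 d/d arrays were the lowest and the double knockout overlapped control, with log2 fold changes of 0.08 in double knockout and −0.63 in Mig-6 d/d against control and 0.72 between the knockouts (limma adjusted p = 0.0536). The pair of Sema5a probe sets therefore ordered the knockouts in opposite ways.

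For Knop1 the brightest probe set was not the one that was called. At 1435690_at its intensity was 103, 117 and 97.5 in double knockout, 118, 149 and 129 in Mig-6 d/d and 114, 100 and 131 in control arrays, and at 1420548_a_at 29.3, 29.7 and 22.4 in double knockout, 28.9, 29.3 and 32.1 in Mig-6 d/d and 21.6, 21.6 and 27.5 in control arrays. Against control the log2 fold changes were −0.11 and 0.20 in double knockout and 0.20 and 0.36 in Mig-6 d/d, none of them called. The call in the comparison of the knockouts was thus seen at 1 of 3 probe sets of Knop1, the dimmest of them.

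For Enpp3, 1427302_at read 233, 271 and 279 in double knockout, 359, 292 and 450 in Mig-6 d/d and 127, 76.4 and 163 in control arrays. Both knockouts were above control here as well, but the Mig-6 d/d arrays were the highest. The log2 fold change was 1.16 in double knockout (not called) and 1.64 in Mig-6 d/d (called), and at 1452384_at it was 1.33 in double knockout (not called) and 1.58 in Mig-6 d/d (called). Between the knockouts it was −0.47 at 1427302_at (limma adjusted p = 0.335) and −0.25 at 1452384_at (adjusted p = 0.735). Higher values than in control were thus read by 3 probe sets, 2 of which were called in Mig-6 d/d alone.

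A ratio of both probe sets on the same array removes what they share. These pairs were picked after their values were seen, so no test is given. The log2 ratio of 1439260_a_at to 1427302_at of Enpp3 was 0.57, 0.99 and 0.60 in double knockout, −0.63, −0.42 and −0.79 in Mig-6 d/d and −0.40, −0.55 and −0.19 in control arrays, so that only the double knockout stood apart from control. The difference between double knockout and Mig-6 d/d in that ratio was 1.33, and against 1452384_at it was 1.11. For Sema5a (1437422_at to 1434776_at) it was −1.16, for Knop1 1.00 (to 1435690_at) and 0.84 (to 1420548_a_at) and for Cplx2 −0.34, each without overlap between the knockouts. In Cplx2 the ratio already differed by −0.90 between Mig-6 d/d and control, and in Knop1 by 0.53 (to 1435690_at) and 0.37 (to 1420548_a_at), each without overlap. The ratio of the other Enpp3 pair, 1427302_at to 1452384_at, overlapped in all comparisons. These ratios show unequal change of the probe sets, and where on its transcript each one lies was not examined.

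**Figure D3:**
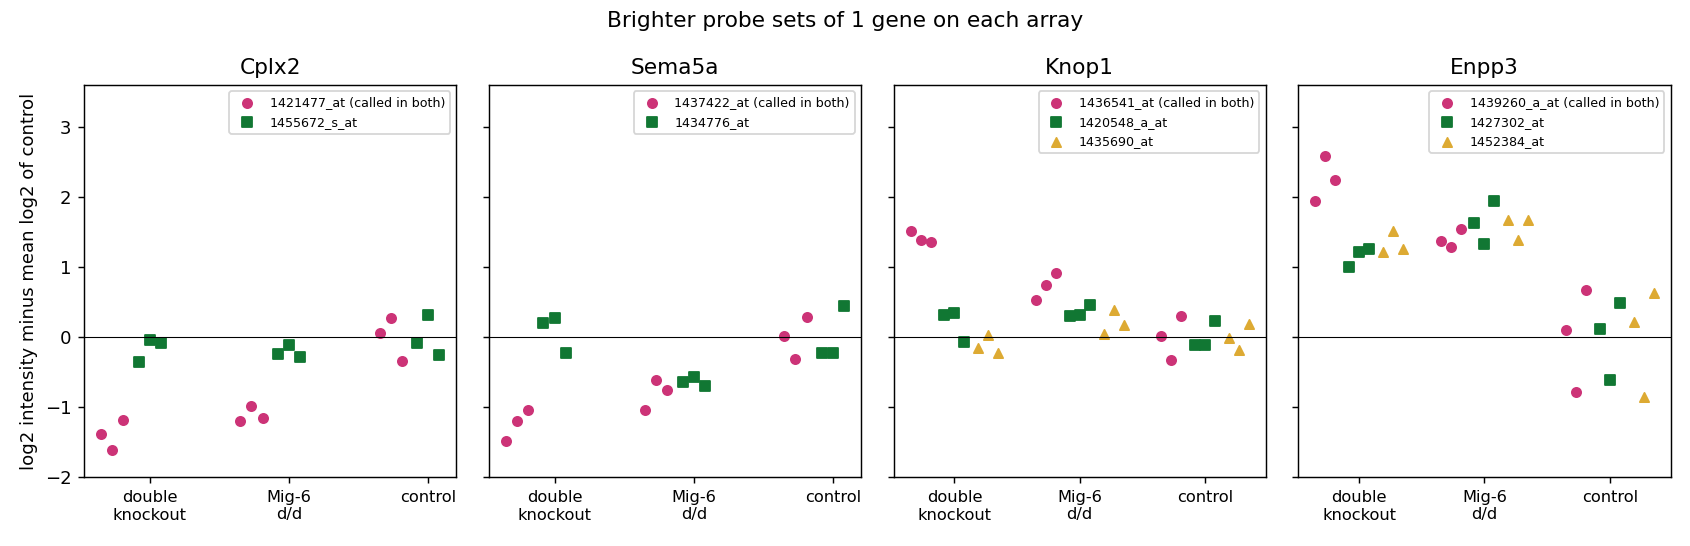
Log2 intensity on each array, minus the mean log2 intensity of the control arrays at that probe set, for the brighter probe sets of Cplx2, Sema5a, Knop1 and Enpp3; each point is 1 array and each marker 1 probe set. The probe sets of Enpp3 all lie above control in both knockouts but order the knockouts differently, whereas 1455672_s_at of Cplx2 and 1435690_at of Knop1 stay near control.

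**Figure D4:**
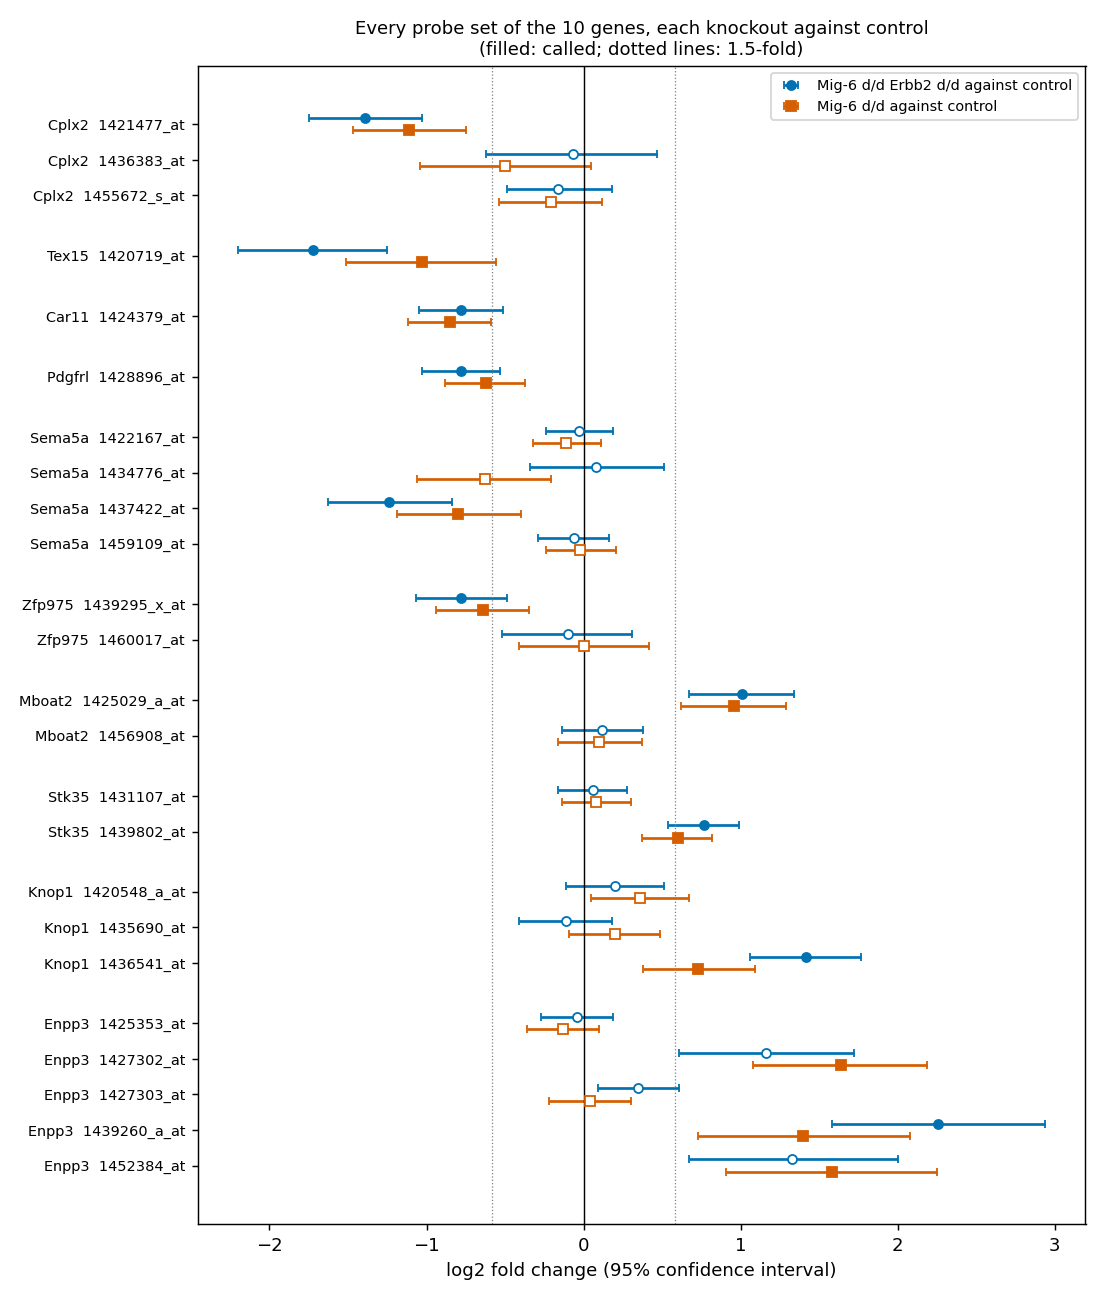
Log2 fold change against control with its 95% confidence interval from limma at each of the 24 probe sets, for the double knockout (circles) and Mig-6 d/d (squares); filled markers were called and dotted lines mark 1.5-fold. Each gene has 1 probe set with both markers filled, and Enpp3 has 2 more that were filled in Mig-6 d/d alone.

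With 3 arrays a group, single arrays decided many of the calls. Cplx2 was called in both knockouts in all 9 fits that left out 1 array, with the larger adjusted p at most 0.0484. Tex15 was called in both in 5 of the 9 fits, Mboat2 and Stk35 in 4, Car11, Pdgfrl and Sema5a in 3, Zfp975 in 2, and Knop1 and Enpp3 in 1, that without control replicate 3. Without the library labelled as replicate 3 of Mig-6 d/d, whose Errfi1 went against its label, Cplx2 (larger adjusted p = 0.0432 in limma) and Mboat2 (0.0488) were called in both, and the others had a larger adjusted p of 0.0502 to 0.123.

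That library was nonetheless unlike control at the 10 genes. Its log2 intensity lay nearest the mean of the other Mig-6 d/d arrays at 7 probe sets and nearest the double knockout mean at 3 (Pdgfrl, Zfp975 and Stk35), and at least 0.70 from the control mean at all 10. The genes were chosen on calls that include it, so this is a description. The Knop1 call between the knockouts was kept without it (log2 fold change 0.78, limma adjusted p = 0.0481) and without each control array, and was lost without any 1 of the other 5 knockout arrays (adjusted p 0.0696 to 0.117).

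**Figure D5:**
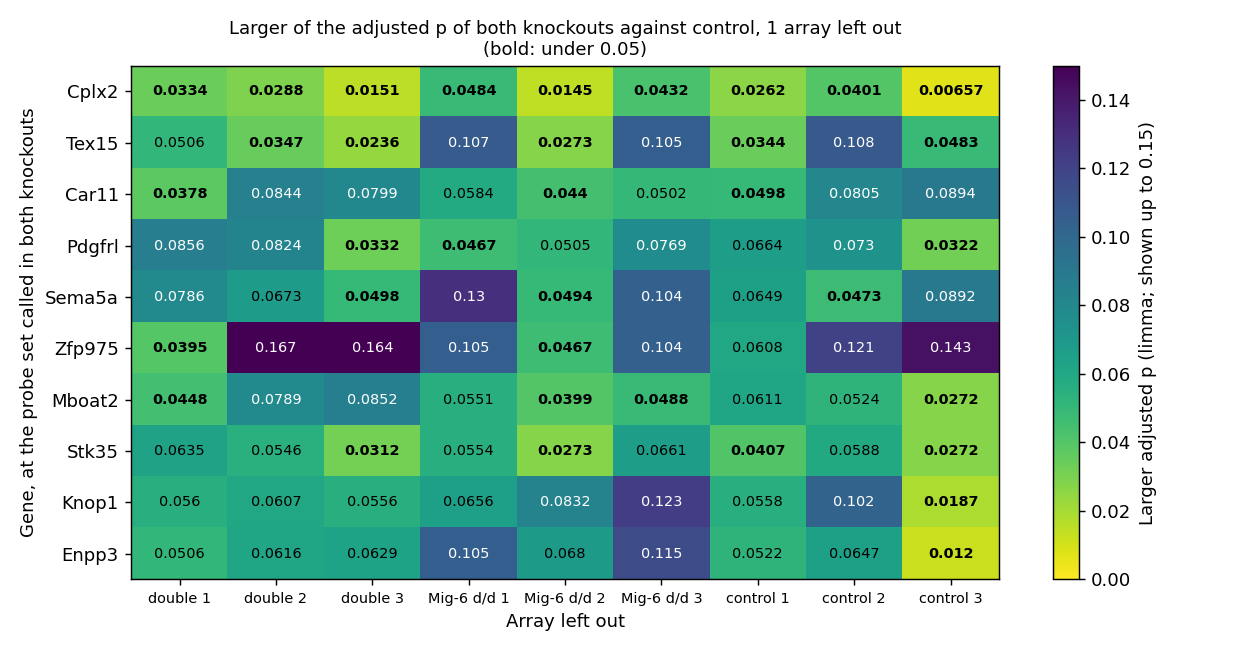
Larger of the limma adjusted p values of the comparisons of both knockouts with control, for each gene (rows) in fits that left out 1 array (columns); bold values are under 0.05 and colours stop at 0.15. The Cplx2 row is under 0.05 throughout, whereas Knop1 and Enpp3 are under it only without control replicate 3.

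Calls among the relatives of the 10 genes are given beside the shares of all genes called. Each list includes the member itself, which was chosen by its calls. With so few genes called in double knockout against control, a lack of calls among relatives says little. Each relative was read at its brightest probe set, at which 0.412% of all genes were called in double knockout against control, 4.36% in Mig-6 d/d against control and 7.49% between the knockouts. Of 24 measured genes of the exocytic SNARE machinery, Cplx2 alone was called in double knockout against control, while in Mig-6 d/d Stx2 (−0.77, limma adjusted p = 0.0144), which encodes a syntaxin, and Syt7 (−0.78, adjusted p = 0.0424), a calcium sensor of exocytosis, were lower as well. Their levels in double knockout were near control (log2 fold change −0.10 and 0.29), and between the knockouts they were called higher (0.67 and 1.08), and Unc13b, a vesicle priming factor, lower (−0.63). Of 24 genes of meiotic recombination and the piRNA pathway, Rec8, a meiotic cohesin subunit, was called besides Tex15, and it was higher in double knockout than in control (1.52, adjusted p = 0.036), at a mean intensity of 18.0 ± 4.58 against 6.33 ± 1.93 in control (SD, n = 3 arrays each). Rec8 was also called higher in double knockout than in Mig-6 d/d (1.69, limma adjusted p = 0.0055).

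Of 16 carbonic anhydrases, Car2, a catalytically active cytosolic form, averaged 454 ± 197 in double knockout, 2220 ± 583 in Mig-6 d/d and 440 ± 114 in control (SD, n = 3 arrays each). It exceeded control in Mig-6 d/d (log2 fold change 2.33, limma adjusted p = 0.00903) and was lower in double knockout than in Mig-6 d/d (−2.34, adjusted p = 0.00355), a pattern unlike that of Car11. Car5b, a mitochondrial form, was also higher in Mig-6 d/d (0.94, adjusted p = 0.0407). Of 7 PDGF ligands and receptors only Pdgfrl was called, and of 31 semaphorins, plexins and neuropilins Sema4d was higher (1.13) and Sema7a lower (−0.79) in Mig-6 d/d besides Sema5a. Neither was called in double knockout against control, and between the knockouts Sema4d was lower (−0.89) and Sema7a (0.71) and Nrp1 (0.63), a neuropilin, were higher.

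Of 19 acyltransferases of the Mboat2 list, none but Mboat2 was called against control; Mboat1 (−1.06, limma adjusted p = 0.0149) and Lpcat3 (−0.80, adjusted p = 0.00149), both lysophospholipid acyltransferases, were lower in double knockout than in Mig-6 d/d. Pdik1l, the nearest relative of Stk35, was not called (0.01 in double knockout and 0.19 in Mig-6 d/d against control). Of 22 nucleolar proteins 0 were called by limma in any comparison, and the list's median log2 fold change was 0.00 in double knockout and 0.21 in Mig-6 d/d against control, beside 0.01 and −0.03 over all genes. The Knop1 of this list was read at 1435690_at. Of 14 ectonucleotidases, adenosine receptors and related genes, Entpd1, which also hydrolyses extracellular nucleotides, was below control in Mig-6 d/d (−0.84, adjusted p = 0.0104), opposite in direction to Enpp3, and higher in double knockout than in Mig-6 d/d (0.63), where Enpp4 was lower (−1.04). Of 305 zinc finger genes 4 were higher and 2 lower than control in double knockout and 3 higher and 3 lower in Mig-6 d/d, and of these Zfp975 was lower in both. The largest increases in double knockout, Zfp429 (1.74), Zfp994 (1.70) and Zfp40 (1.17), had log2 fold changes of −0.07, 0.25 and −0.07 in Mig-6 d/d. Between the knockouts 9 of the zinc finger genes were higher and 7 lower in double knockout, Zfp429 (1.81) and Zfp982 (−1.50) the furthest. Without replicate 3 of Mig-6 d/d, the calls against control of Stx2, Syt7, Car2, Sema7a and Entpd1 in Mig-6 d/d and of Rec8, Zfp429, Zfp994 and Zfp40 in double knockout were kept, and those of Car5b (limma adjusted p = 0.0769) and Sema4d (0.0613) were lost. Between the knockouts the calls of Unc13b, Sema4d, Nrp1, Mboat1 and Enpp4 were lost (limma adjusted p 0.0532 to 0.108). Those of Stx2, Syt7, Rec8, Car2, Sema7a, Lpcat3, Entpd1, Zfp429 and Zfp982 were kept.

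Markers of cell types moved in 1 of the comparisons with control. Each was read at its brightest probe set, where 0.412% of all genes were called in double knockout and 4.36% in Mig-6 d/d against control. Between the knockouts the share was 7.49%. Of 12 epithelial markers 6 were higher in Mig-6 d/d and 0 in double knockout than in control, and 8 were lower in double knockout than in Mig-6 d/d. The summed intensity of the 12 was 2790 to 4050 in double knockout, 8030 to 12400 in Mig-6 d/d, against 3060 to 5520 in control arrays. Of 12 stromal markers 2 and of 8 endothelial markers 3 were below control in Mig-6 d/d, and 0 of either list were called in double knockout. Of 9 smooth muscle markers 1 was below control in Mig-6 d/d, and 5 were higher in double knockout than in Mig-6 d/d. Between the knockouts 2 stromal and 4 endothelial markers were also higher in double knockout. Of 8 leukocyte markers 1, Csf1r, was below control in Mig-6 d/d (log2 fold change −0.67, limma adjusted p = 0.0326). Without replicate 3 of Mig-6 d/d, 1 epithelial marker was higher and 1 stromal, 2 endothelial, 1 smooth muscle and 0 leukocyte markers were lower than control in that knockout. In that fit 6 epithelial markers were lower in double knockout than in Mig-6 d/d, and 2 stromal, 4 endothelial and 3 smooth muscle markers were higher. Of 10 markers of mast cells and basophils, in which Cplx2 and Enpp3 are known, none was called in any comparison, and their sum was 484 to 749 in double knockout, 314 to 1010 in Mig-6 d/d, against 271 to 621 in control arrays. Most of that sum was Hdc, and Fcer1a and Ms4a2, which encode subunits of the IgE receptor, averaged 3.48 to 3.76 in every group, below the arrays' median. Markers of neurons (10), Schwann cells (3), ovary, oviduct and germ cells (8), glands (5), adipocytes and mesothelium (5) and erythroid cells (2) held no call either. Without replicate 3 of Mig-6 d/d, 2 of the adipocyte and mesothelium markers were called higher in double knockout than in Mig-6 d/d. What part these shifts have in the values of the 10 genes was not tested.

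Genes beside the 10 on their chromosomes were set beside them. The 10 lie on 7 chromosomes, 3 of them on 1, and 0 on a chromosome of Errfi1, Erbb2 or Pgr. Of 100 measured neighbours, 5 on either side, 2 (2%) were called in double knockout and 2 (2%) in Mig-6 d/d against control, none in both, and 11 (11%) between the knockouts, beside 0.412%, 4.36% and 7.49% of all genes. With 10 on either side, 3 of 200 (1.5%) were called in double knockout, 2 (1%) in Mig-6 d/d, 0 in both and 19 (9.5%) between the knockouts. The pair in double knockout were Fut10 near Tex15 (1.80, limma adjusted p = 0.000293), a fucosyltransferase gene, and Atpsckmt near Sema5a (0.73, adjusted p = 0.0318), and both were higher where the neighbouring member was lower. In Mig-6 d/d they were Gsr near Tex15 (1.25) and Asah1 near Pdgfrl (0.80). Between the knockouts Fut10 (1.64), Slc7a2 near Pdgfrl (1.37) and Snhg18 near Sema5a (1.10) were the furthest up, followed by Mamstr, Pcm1 and Epb41l2, and Cmbl near Sema5a (−1.88) and Gsr (−1.28) the furthest down, followed by Grhl1, Mtus1 and Frg1. Without replicate 3 of Mig-6 d/d the calls of Atpsckmt in double knockout (adjusted p = 0.0604) and of Gsr (0.0681) and Asah1 (0.0593) in Mig-6 d/d were lost, as were those of Mamstr, Pcm1, Grhl1 and Mtus1 between the knockouts, while that of Fut10 was kept (0.00129).

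The genes most like each member over the 9 arrays were found by the root mean square difference between log2 profiles, each centred on its own mean, over 12026 genes brighter than the median. Car11 and Zfp975 were 0.123 apart, so that each was among the closest to the other. Trio was at the same distance from Car11, Rps4l was 0.113 from Stk35, and Stk35 was 0.237 from Mboat2 and Pdgfrl 0.299 from Cplx2. The loosest matches were those of Enpp3, to Akr1c19 (0.485) and Noct (0.548), while the root mean square spread of Enpp3 itself was 1.01. Decr2, at 0.289 from Tex15, and Noc3l, at 0.279 from Knop1, were called in double knockout against control (log2 fold change −1.19 and 0.88) and not in Mig-6 d/d (−0.52 and 0.52). The arrays share their groups and the members were chosen on them, so these distances describe profiles only.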

How the data were processed

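The authors deposited linear intensities of 45037 probe sets, computed in Bioconductor (version not given in the sources used here) by RMA, which includes quantile normalization. Scanner files were not used here, which leaves the signal of single probe sets over background unknown. The log2 of each intensity was fitted by lmFit and eBayes of limma 3.58.1 (R 4.3.3, statmod 1.5.0), with 3 groups in 1 model, and adjusted over all probe sets. The fit was tested on simulated data. Probe sets were named from the platform annotation (34945 with 1 symbol, 932 with several, 9160 unnamed here); symbols and gene order came from RefSeq, GRCm38.p6. The rule for named genes took every member at every probe set of its own, called members of the gene lists, called neighbours and the 2 nearest profiles. The members and lists were chosen with earlier results of these data known. Alternatives were 9 fits without 1 array, other filters, scalings, variance models and thresholds, the two-tailed unpaired t-test of the study's general statistics (no test is named there for the arrays), and averaging all probe sets of a gene. Figures used Python 3.11.15 and matplotlib 3.10.9.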

Additional observations from a re-analysis of the deposited data

Results flagged for a closer look

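Knop1 at 1436541_at differed between the double knockout and Mig-6 d/d when they were compared directly (log2 fold change 0.68, limma adjusted p = 0.0319). In 3 of 3 double knockout arrays it was higher than in every Mig-6 d/d array. This probe set was taken among 3 for its calls against control, which used the same knockout arrays, so the test is not independent of that choice. At 1435690_at and 1420548_a_at the log2 fold change was −0.31 (limma adjusted p = 0.213) and −0.16 (0.609). The mean over the 3 probe sets gave 0.07 (adjusted p = 0.795).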

How the results depend on the processing

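Of the 24 probe sets, those called numbered 10 in double knockout against control, 12 in Mig-6 d/d against control, 10 in both and 1 between the knockouts (161, 1265, 13 and 2312 over the whole array). In the same order, fits to only the 6 arrays compared gave 3, 7, 2 and 3 (whole array 90, 612, 4 and 2771), log2 of intensity plus 16 gave 4, 3, 1 and 0 (57, 354, 2 and 855), a limit of more than 2-fold gave 6, 5, 3 and 0 (98, 434, 4 and 849), and the t-test that the study's general statistics name, though not for the arrays, gave 0, 0, 0 and 0 after adjustment (0, 0, 0 and 35), against 12, 12, 12 and 3 without it (529, 1797, 58 and 2934). Between the knockouts alone, the filter on dim probe sets, the trended and robust variance and array weights gave 2 each and an adjusted p under 0.1 gave 3. With the replicate number as a block (replicate block) the counts were 7, 12, 7 and 2, and Tex15 was called between the knockouts (limma adjusted p = 0.0174); correlations of same-numbered arrays were −0.133 to 0.203, so the numbers do not pair the samples. Leaving out 1 array gave 3 to 10 in double knockout, 4 to 10 in Mig-6 d/d, 2 to 7 in both and 0 to 3 between the knockouts (86 to 156, 353 to 1762, 3 to 17 and 1133 to 2545 over the whole array); only 2 stayed called in both without double knockout replicate 2, Mig-6 d/d replicate 1, Mig-6 d/d replicate 3 or control replicate 2, and 7 without Mig-6 d/d replicate 2 or control replicate 3. Averaging all probe sets of a gene ended the calls against control in both knockouts for Cplx2 (−0.54, adjusted p = 0.402 in double knockout; −0.60, 0.0579 in Mig-6 d/d), Sema5a (−0.31, 0.483; −0.39, 0.0584), Zfp975 (−0.44, 0.416; −0.32, 0.197), Mboat2 (0.56, 0.0751; 0.53, 0.0205 but under 1.5-fold), Stk35 (0.41, 0.122; 0.34, 0.0430 but under 1.5-fold) and Knop1 (0.50, 0.236; 0.43, 0.0726), and for Enpp3 in double knockout alone (1.01, 0.0681). Enpp3 was called between the knockouts with only the 6 arrays compared (adjusted p = 0.0168) and without control replicate 2 (0.0272). The direction between the knockouts turned, never past the threshold, for Cplx2 (0.06) and Sema5a (0.08) when all probe sets of a gene were averaged, for Car11 without double knockout replicate 1 (−0.02 to 0.19 over all arrays left out) and for Mboat2 without double knockout replicate 3 (−0.08 to 0.15). Adding 16 shrinks changes of dim probe sets by construction, a higher fold limit can only remove calls, and fits without an array hold fewer samples. The mean over probe sets lies between their readings by construction. For Zfp975, Mboat2 and Stk35 that mean took in a dim probe set. There the log2 fold change against control was −0.10, 0.12 and 0.06 in double knockout and 0.00, 0.10 and 0.08 in Mig-6 d/d. For the other settings the cause was not tested. The 3 arrays a group limit the precision throughout.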
